A study of Mus musculus with 12 samples.

Results

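Adrenergic receptors and the G protein signalling machinery behind them are described here through 9 genes, Adra1a, Adra1b, Adrb1, Gpr22, Chrm2, Adcy5, Adcy6, Grk5 and Rgs2. They were chosen by symbol, with their levels in these libraries already known, from 17043 genes of one deposited table and 17833 of the other, and all 9 were found in both. The libraries were made from total RNA of mouse hearts, 12 in all, in 4 groups of 3. One experiment set hearts of the genotype labelled HDAC3 KO (KO below) against WT hearts. The other set NS-DADm hearts, whose HDAC3 the labels describe as inactive, against WT hearts of their own. HDAC3 is a histone deacetylase that is recruited by corepressors, NCOR1 among them, and needs their deacetylase-activating domain for enzyme activity. NS-DADm mice carry mutations in such domains. The labels record no treatment, age, sex, strain or Cre driver, and do not say whether a replicate was 1 animal, so the spread between libraries, and every p-value, may be technical. The design asks which effects of losing HDAC3 follow from losing its enzyme activity.

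Noradrenaline and adrenaline act on the heart through adrenergic receptors. The beta receptors couple to the stimulatory G protein, which switches on adenylyl cyclase, and cyclic AMP then activates protein kinase A, which phosphorylates calcium channels, phospholamban and troponin I. The alpha1 receptors couple to Gq and phospholipase C, and the muscarinic M2 receptor opposes the beta receptors through inhibitory G proteins. Receptor kinases and RGS proteins end the signal, the former at the receptor and the latter at the G protein.

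Of the 9 genes, Gpr22, Adra1b and Adcy5 had every mutant library under every WT library in both experiments, and the sequences at their annotated transcript starts are shown for that reason. Each window runs from 250 bases before to 50 bases after the start, 5′ to 3′ on the strand given by RefSeq on GRCm38.p6, with GGGCGG (the GC box), TATAAA (the TATA box) and their reverse complements in capitals. Stretches of 20 bases from these windows were found in the sense direction in GENCODE transcripts of Gpr22 (95 stretches) and Adcy5 (18), with 0 in antisense; the Adra1b window shared no such stretch in either direction, so its strand rests on RefSeq alone.
Gpr22, chr12:31713834-31714133, minus strand: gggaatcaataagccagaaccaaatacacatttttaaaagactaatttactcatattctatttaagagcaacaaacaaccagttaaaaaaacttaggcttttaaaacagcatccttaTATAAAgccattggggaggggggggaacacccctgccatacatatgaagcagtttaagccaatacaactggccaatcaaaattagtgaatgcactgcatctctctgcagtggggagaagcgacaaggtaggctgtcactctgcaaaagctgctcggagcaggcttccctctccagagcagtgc
Adra1b, chr11:43836440-43836739, minus strand: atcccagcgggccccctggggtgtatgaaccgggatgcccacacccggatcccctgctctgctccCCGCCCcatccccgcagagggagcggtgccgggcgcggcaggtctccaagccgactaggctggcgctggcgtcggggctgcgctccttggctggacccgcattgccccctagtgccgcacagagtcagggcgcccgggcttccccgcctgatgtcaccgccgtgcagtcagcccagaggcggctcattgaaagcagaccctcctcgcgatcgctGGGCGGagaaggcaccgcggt
Adcy5, chr16:35154614-35154913, plus strand: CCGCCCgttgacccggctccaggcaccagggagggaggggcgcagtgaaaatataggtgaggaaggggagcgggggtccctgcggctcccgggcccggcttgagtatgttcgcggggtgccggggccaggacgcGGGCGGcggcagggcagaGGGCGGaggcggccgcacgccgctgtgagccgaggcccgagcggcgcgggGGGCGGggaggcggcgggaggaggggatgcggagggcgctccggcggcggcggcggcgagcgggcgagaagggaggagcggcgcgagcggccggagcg
The Gpr22 window held 1 TATAAA, at position -133 from the start, no GGGCGG, and 43.0% G and C. The Adcy5 window held 4 matches of GGGCGG and 79.0% G and C, and the printed Adra1b window held 2 matches and 71.3%. A second annotated start of Adra1b (window chr11:43901188-43901487, minus strand, not printed) held neither motif and 42.3% G and C. RefSeq windows were found for 7 of the 9 genes (8 windows). Both strands were searched for AGGTCA (bound by nuclear receptors), TGACGTCA (the cyclic AMP response element), CTA and TAG with 4 bases of any kind between them (the MEF2 core), AGATAA (bound by GATA factors), GGGCGG and TATAAA, and no hits of different motifs overlapped. GGGCGG was found in the windows of Adcy5, Adra1b, Adrb1, Chrm2 and Rgs2 and in 35.7% of all 32851 windows, and TATAAA in that of Gpr22 and in 13.6% of all. The letters of AGGTCA (16.3% of all windows), TGACGTCA (1.79%), the MEF2 core (3.69%) and AGATAA (11.2%) were in none of the 8 windows.

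Levels are FPKM, fragments scaled by transcript length and library total, as the authors deposited them, and errors are SD over 3 libraries (n = 3). The FPKM of a library summed to 605736.6 to 650460.5 in the KO and 531362.2 to 560144.3 in the NS-DADm experiment, with 11320 to 11699 genes of at least 1 FPKM. Depth over the listed genes, estimated from the steps between low values, was 8.6 to 10.6 M fragments (M, mega) in the KO experiment and 10.1 to 12.8 M fragments in the other. The labels' protocols state an average of 60 M reads. This gap was not resolved, and all fragment numbers here rest on the estimate. The chi-square between replicates, over its degrees of freedom and computed on these fragments, averaged 1.15 to 1.41 in the KO and 3.08 to 9.67 in the NS-DADm experiment. Replicates thus lay farther apart in the latter. Counting alone gives a value near 1, so at the estimated depth replicates of the KO experiment differed little beyond it. Numbers of calls in each experiment rest on these unlike spreads, and the part of the spread in them was not tested. Hdac3 itself was at 28.1 ± 1.19 FPKM in WT and 7.9 ± 0.6 FPKM in KO hearts (limma adjusted p = 2.37e-09), while NS-DADm hearts (29.8 ± 0.804 FPKM) did not differ past the test from their WT (29.8 ± 2.02 FPKM, adjusted p = 0.975), which gives no check of a mutation that alters other proteins.

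The libraries also differed in sex and in tissue. The Y-linked genes Ddx3y, Eif2s3y, Kdm5d and Uty summed to 0.11 to 0.14 FPKM in the 3 WT hearts of the KO experiment and to 77.1 to 80.2 FPKM in the 3 KO hearts. Sex and genotype therefore cannot be told apart in the KO experiment, for any gene. Xist was not listed in that experiment, so the sex of its WT hearts was read from the low Y-linked values alone. In the NS-DADm experiment Xist was at 15.11 to 20.56 FPKM and Ddx3y at or under 0.06 FPKM in all 6 libraries. Atrial markers (Sln, Myl7, Myl4, Nppa, Bmp10 and Dkk3) summed to 534.8, 270.7 and 4691.3 FPKM in the WT and 3772.8, 574.5 and 6585.4 FPKM in the NS-DADm hearts, so both groups held libraries with many and with few atrial transcripts, and none of the 6 markers passed the test. Bmp10 was listed at 0 in WT replicates 1 and 2 and NS-DADm replicate 2 and was at 35.76 to 64.77 FPKM in the other 3. In the KO experiment the same sum was 133.3 to 141.4 FPKM in WT and 1950.1 to 2006.4 FPKM in KO hearts. Of the 6 markers 5 were tested there, and all 5 were higher. Most of the sum was Nppa, which stressed ventricle also makes, and Myl7 was at 7.68 ± 0.612 and 11.6 ± 1.55 FPKM in WT and KO hearts.

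The cellular makeup measured by other markers moved with the KO genotype. The 10 cardiomyocyte markers, all well expressed, summed to 63750.1 to 66283.2 FPKM in WT and 50980.5 to 51939.0 FPKM in KO hearts, with 8 lower and 1, Actc1, higher. The 3 ventricular markers summed to 29280.6 to 31346.2 and 13518.7 to 13948.8 FPKM. The 8 macrophage markers, all higher, summed to 302.6 to 330.1 FPKM in WT and 1790.9 to 1831.9 FPKM in KO hearts, and the 8 fibroblast markers, 6 of them higher and Tcf21 lower, to 714.6 to 752.7 and 1853.4 to 1857.2 FPKM. In the NS-DADm experiment cardiomyocyte markers overlapped (56960.0 to 61832.3 FPKM in WT, 58239.6 to 61514.1 FPKM in NS-DADm hearts, none past the test). Macrophage markers were at 283.7 to 317.4 and 365.6 to 423.7 FPKM, with 4 of 8 higher. Endothelial markers summed to 2294.8 to 2522.0 FPKM in WT and 1654.2 to 1675.7 FPKM in KO hearts, with 7 of 8 lower, and erythroid markers to 6100.0 to 7090.2 and 2054.7 to 2170.1 FPKM, with 4 of 4 lower. Immediate early genes summed to 35.2 to 36.2 FPKM in WT and 72.6 to 80.2 FPKM in KO hearts, with 5 of 6 higher. In the NS-DADm experiment, erythroid markers were at 5047.1 to 5999.2 FPKM in WT and 2562.6 to 4994.1 FPKM in mutant hearts and pericyte markers at 105.9 to 112.4 and 88.2 to 98.5 FPKM, with 0 of 4 called on either list. Immediate early genes were at 38.0 to 51.3 and 57.2 to 66.0 FPKM there, with 1 of 6, Junb, higher. In bulk tissue, fewer cells of a type and less RNA per cell cannot be told apart, and the part of these marker differences in the results on the receptor genes was not tested.

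**Figure D1:**
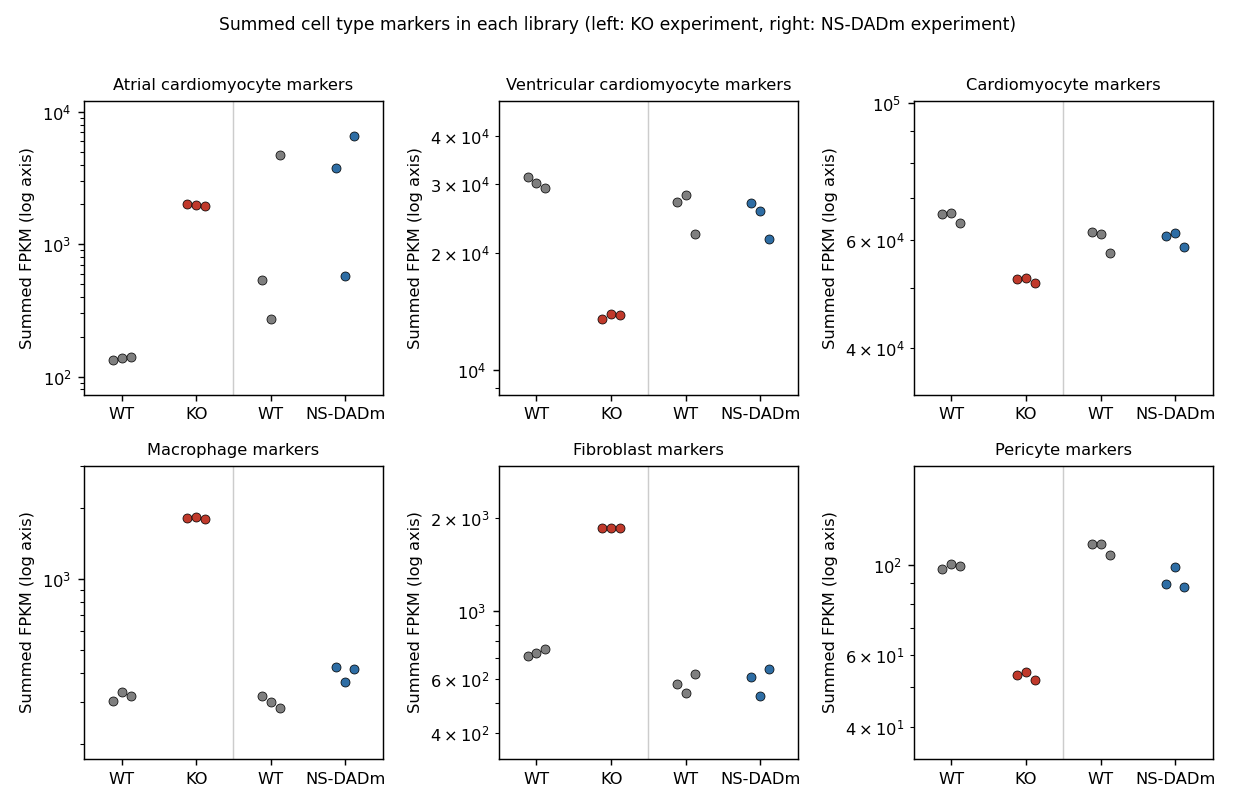
Summed FPKM of 6 lists of cell type markers in each of the 12 libraries, on log axes; each point is 1 library, and the grey line separates the KO experiment (left) from the NS-DADm experiment (right). Macrophage markers lie at 302.6 to 330.1 FPKM in WT and 1790.9 to 1831.9 FPKM in KO hearts, and atrial markers spread from 270.7 to 6585.4 FPKM within the NS-DADm experiment.

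Across the 9 genes, 8 were called lower in KO hearts and 3 in NS-DADm hearts, and 8 had a log2 fold change under 0 in each experiment. Replicates lay farther apart in the NS-DADm experiment, so numbers of calls are not like for like between the experiments. In KO against WT, 8 of the 9 genes were past an adjusted p of 0.05 in limma, all lower (Grk5 was the exception), and the median log2 fold change was -0.58 against 0.06 over all 11810 genes tested. Of all genes tested, 27.6% were called lower and 65.8% in either direction. The 10 cardiomyocyte markers had a median log2 fold change of -0.58 in KO hearts and -0.06 in NS-DADm hearts. In NS-DADm against WT, 3 of the 9, Gpr22, Adra1b and Adcy5, were called, all lower, with a median of -0.29 against -0.02 over 11705 genes, of which 1.43% were called lower and 2.69% in either direction. The same genes, 8 and 3, had every mutant library under every WT library, which held for 29.6% of all genes in the KO and 15.0% in the NS-DADm experiment; groups did not overlap in either direction for 69.8% and 24.2%. Since the 9 genes were chosen with these values known, nothing is read from the counts and no p-value is given for them; log2 fold changes are on log2(FPKM + 1), which understates changes of low genes, and folds are ratios of mean FPKM. Scaling each library to its median changed the split over all genes in the KO experiment from 4515 higher and 3260 lower to 3640 higher and 4150 lower, and no direction among the 8 genes. Adra1a and Gpr22 were under 1 FPKM in every KO library, so they were tested through WT alone and could only be lower in KO.

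**Figure D2:**
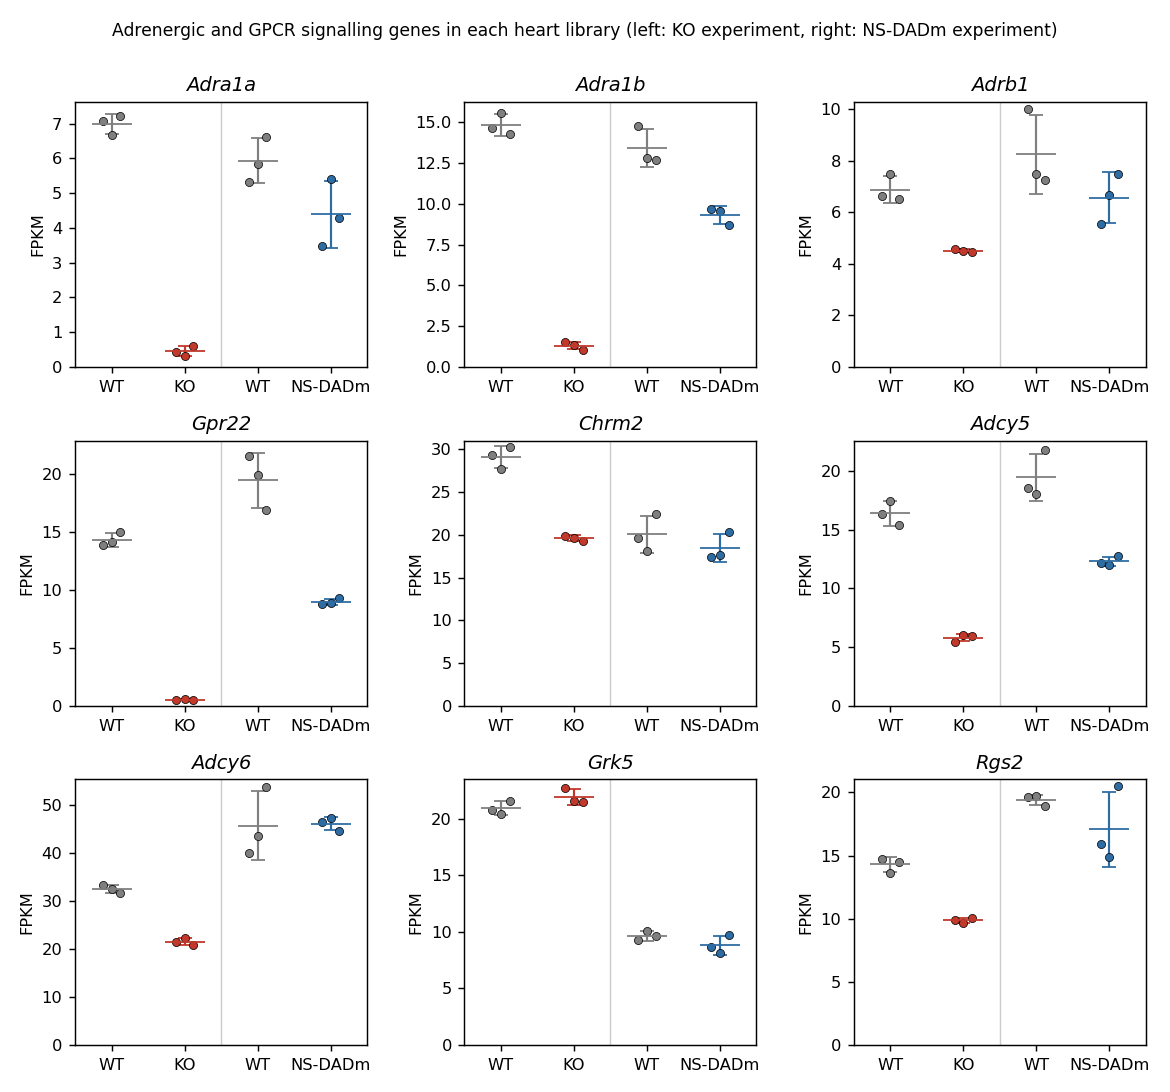
FPKM of the 9 genes in each library (points), with the mean and SD over 3 libraries (bars), for the KO experiment on the left and the NS-DADm experiment on the right of the grey line in each panel; axes start at 0. Adra1a, Adra1b and Gpr22 are near 0 in KO hearts (0.46, 1.3 and 0.53 FPKM) and at 4.39, 9.31 and 8.99 FPKM in NS-DADm hearts.

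Per length, the order of levels in the WT hearts of the KO experiment ran from Adcy6 (32.6 ± 0.846 FPKM) and Chrm2 (29.1 ± 1.26 FPKM) through Grk5, Adcy5, Adra1b, Gpr22 and Rgs2 to Adra1a (6.99 ± 0.29 FPKM) and Adrb1 (6.88 ± 0.528 FPKM). Adra1b, Gpr22 and Rgs2 overlapped in this order, as did Adra1a with Adrb1 and Adcy5 with Adra1b. In KO hearts the order changed. Grk5 (21.9 ± 0.702 FPKM) overlapped Adcy6 (21.5 ± 0.687 FPKM) at the top, Adrb1 (4.52 ± 0.0603 FPKM) became the most abundant of the 3 adrenergic receptors, and Gpr22 overlapped Adra1a at the bottom.

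The alpha1 receptors were the adrenergic receptors with the largest falls in KO hearts. Adra1a (chromosome 14, 66635251 to 66771240, GRCm38.p6 here and below) encodes the alpha1A receptor, known in mouse heart muscle for protective signalling. It was at 7.08, 6.67 and 7.23 FPKM in WT and at 0.44, 0.33 and 0.61 FPKM in KO hearts. The lowest WT library stood far above the highest KO library, and the means differed 15.2-fold (log2 fold change -2.46, SE 0.0892, 95% interval -2.65 to -2.26). At the estimated depth and the lengths of its annotated transcripts, the KO values rest on 8 to 26 fragments per library. Adra1a in the NS-DADm experiment was at 5.33, 5.84 and 6.61 FPKM in WT and 3.47, 5.40 and 4.29 FPKM in mutant hearts. Replicate 2 of the mutant reached into the WT range, so the groups overlapped, with a mean 1.35-fold lower (-0.37, SE 0.134, -0.68 to -0.07).

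Adra1b (chromosome 11, 43774605 to 43901250), the alpha1B receptor, followed the same pattern at a higher level. It was at 14.65, 15.53 and 14.27 FPKM in WT and 1.52, 1.33 and 1.06 FPKM in KO hearts, 11.4-fold lower (-2.78, SE 0.0838, -2.97 to -2.60). Hearts of the NS-DADm genotype had 9.67, 9.58 and 8.67 FPKM against 14.76, 12.77 and 12.70 FPKM in their WT. Here the groups were apart, with a mean 1.44-fold lower (-0.48, SE 0.0824, -0.67 to -0.30). Adra1b was no longer past the threshold without NS-DADm replicate 1 or 3, without WT replicate 1 or 2, or with the atrial markers other than Nppa as a covariate; its log2 fold change stayed between -0.52 and -0.42.

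Adra1b also lies on the chromosome of Ncor1, 18.5 Mb away, which the NS-DADm genotype alters. Of 9 tested genes within 2 Mb of Adra1b, Pttg1 (securin) fell from 140.3 ± 8.56 to 4.67 ± 1.1 FPKM in NS-DADm hearts (log2 fold change -4.66, limma adjusted p = 8.9e-07). Whether sequence linked to the altered allele has a part in the Adra1b value was not tested. Around Gpr22 1 of 17 and around Adcy5 1 of 24 tested neighbours passed.

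Among the other alpha1 receptors, Adra1d (alpha1D) was low in all groups. It was at 0.90, 1.31 and 1.68 FPKM in WT and 0.13, 0.16 and 0.08 FPKM in KO hearts, too low for the test. In the NS-DADm experiment Adra1d was at 1.6, 1.61 and 1.65 FPKM in WT and 0.62, 0.51 and 0.70 FPKM in mutant hearts (log2 fold change -0.70, SE 0.108). It passed the filter through WT alone and so could only fall (limma adjusted p = 0.0129, and 0.0222 without the filter). It was past the threshold in the alternatives that tested it, and was not tested when any 1 WT library was left out. The difference between the effects did not pass (0.31, adjusted p = 0.129).

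Adrb1 (chromosome 19, 56722117 to 56725150), the main beta receptor of heart muscle and the target of cardioselective beta blockers, was much less reduced than the alpha1 receptors. It was at 6.63, 7.49 and 6.53 FPKM in WT and 4.58, 4.51 and 4.46 FPKM in KO hearts. The KO libraries (SD 0.0603 FPKM) were all under WT, 1.52-fold lower (-0.51, SE 0.0693, -0.67 to -0.36). In NS-DADm hearts Adrb1 was at 5.53, 6.69 and 7.49 FPKM against 10.02, 7.47 and 7.27 FPKM in WT. WT replicate 1 was high, the groups overlapped, and the interval of the change included 0 (-0.29, SE 0.134, -0.59 to 0.02). Adra2a, Adra2b, Adra2c and Adrb3 were under 1 FPKM in every library and were not tested.

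Gpr22 (chromosome 12, 31706867 to 31713883), an orphan receptor abundant in heart and brain, had the largest fold of the 9 genes in both experiments. It was at 13.85, 14.10 and 14.99 FPKM in WT and 0.51, 0.59 and 0.49 FPKM in KO hearts. KO hearts thus had 27.0-fold less of it (-3.32, SE 0.0703, -3.48 to -3.17), a level that rests on 8 to 28 estimated fragments per library. NS-DADm hearts had 8.80, 8.90 and 9.27 FPKM against 21.55, 19.92 and 16.90 FPKM in WT. The mutant libraries lay close together and under all WT libraries, 2.16-fold lower (-1.03, SE 0.09, -1.23 to -0.83).

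The muscarinic M2 receptor, Chrm2 (chromosome 6, 36387991 to 36528638), which carries the vagal slowing of the heart, was the most abundant receptor of the 9 genes in KO hearts as in their WT. It was at 29.30, 27.75 and 30.24 FPKM in WT and 19.91, 19.64 and 19.24 FPKM in KO hearts, 1.48-fold lower (-0.55, SE 0.0479, -0.65 to -0.44). Hearts of the other experiment had 19.63, 18.16 and 22.39 FPKM (WT) and 17.38, 17.60 and 20.32 FPKM (NS-DADm). These groups overlapped and the interval included 0 (-0.11, SE 0.0918, -0.32 to 0.09). Chrm3 and Chrm4 were under 1 FPKM in every library.

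The 2 main cyclases of heart muscle, adenylyl cyclase 5 and 6, make cyclic AMP and are inhibited by calcium; both were lower in KO hearts, and Adcy5 also in NS-DADm hearts. Adcy5, located on chromosome 16 (35154494 to 35305743), had 16.38, 17.48 and 15.38 FPKM in WT and 5.44, 6.04 and 5.96 FPKM in KO hearts, 2.82-fold lower (-1.35, SE 0.0661, -1.50 to -1.21). NS-DADm hearts had 12.20, 11.99 and 12.73 FPKM against 18.55, 18.03 and 21.78 FPKM, 1.58-fold lower with groups apart (-0.62, SE 0.0815, -0.80 to -0.43). Adcy6, located on chromosome 15 (98589978 to 98610287), had 33.39, 32.62 and 31.70 FPKM in WT and 21.48, 22.25 and 20.88 FPKM in KO hearts, 1.51-fold lower (-0.58, SE 0.0456, -0.68 to -0.47). Adcy6 in the NS-DADm experiment was at 40.05, 43.53 and 53.74 FPKM in WT and 46.53, 47.37 and 44.68 FPKM in mutant hearts. All 3 mutant libraries lay inside the wide WT range (0.02, SE 0.0985, -0.20 to 0.25).

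Of the other cyclases, Adcy7, known from blood cells, rose from 2.95 ± 0.198 to 8.95 ± 0.403 FPKM in KO hearts, in which macrophage markers were also higher. Adcy4 fell from 9.32 ± 0.121 to 6.79 ± 0.27 FPKM and Adcy9 from 6.06 ± 0.34 to 4.42 ± 0.0436 FPKM (limma adjusted p = 3.59e-08, 0.000113 and 0.000441 in this order). Adcy3 was at 1.05 ± 0.118 and 0.967 ± 0.0702 FPKM (adjusted p = 0.593). None of these 4 passed in NS-DADm hearts.

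Grk5 (chromosome 19, 60889560 to 61095968), a kinase that phosphorylates activated receptors and is studied in heart failure, was the gene of the 9 not called in either experiment. It was at 20.82, 20.47 and 21.62 FPKM in WT and 22.76, 21.57 and 21.52 FPKM in KO hearts, with overlapping groups (0.06, SE 0.0478, -0.04 to 0.17). In the NS-DADm experiment it was at 9.25, 10.06 and 9.6 FPKM in WT and 8.63, 8.10 and 9.70 FPKM in mutant hearts (-0.12, SE 0.0823, -0.30 to 0.07). The WT levels differ between the tables, which were normalized separately, and are not compared. The authors' deposited table gives Grk5 a signed fold of -1.10 in KO hearts (q = 0.0932), of the opposite sign to the mean FPKM. The other receptor kinases were likewise not past the test in KO hearts, with Grk2 at 20.9 ± 0.974 and 22.5 ± 0.548 FPKM (limma adjusted p = 0.102), and Grk3, Grk4 and Grk6 at adjusted p = 0.914, 0.0672 and 0.731. The arrestins, which bind phosphorylated receptors, were both higher: Arrb2 rose from 5.71 ± 1.22 to 20.9 ± 0.988 FPKM and Arrb1 from 5.97 ± 0.217 to 8.07 ± 0.412 FPKM (adjusted p = 2.03e-07 and 0.000356). Macrophage markers were also higher in these KO hearts, and their part in these rises was not tested.

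Rgs2 (chromosome 1, 143999338 to 144004149), which ends Gq signalling, was at 14.75, 13.62 and 14.50 FPKM in WT and 9.92, 9.62 and 10.05 FPKM in KO hearts, 1.45-fold lower (-0.49, SE 0.055, -0.61 to -0.37). Its level in the NS-DADm experiment was 19.62, 19.68 and 18.91 FPKM in WT and 15.91, 14.89 and 20.48 FPKM in mutant hearts. Mutant replicate 3 lay above all WT libraries, the groups overlapped and the interval included 0 (-0.19, SE 0.106, -0.42 to 0.05).

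Set side by side, the effect in NS-DADm hearts was smaller in size than that in KO hearts for 8 of the 9 genes, the exception being Grk5. Nothing is read from this count, since the same share over all genes was not computed. Of all genes tested, 65.8% were called in KO and 2.69% in NS-DADm hearts, with the wider spread between replicates in the NS-DADm experiment. The difference of the log2 fold changes, NS-DADm minus KO, was 2.30 for Gpr22 (95% interval 2.05 to 2.54), 2.30 for Adra1b (2.04 to 2.56) and 2.08 for Adra1a (1.72 to 2.45). Next came Adcy5 with 0.74 (0.51 to 0.96), Adcy6 with 0.60 (0.35 to 0.84), Chrm2 with 0.43 (0.20 to 0.66) and Rgs2 with 0.31 (0.04 to 0.57). For Adrb1 (0.23, -0.11 to 0.57) and Grk5 (-0.18, -0.38 to 0.01) the interval included 0. Over all 11662 genes that were listed in both experiments and tested for this difference, 45.9% were called for it and 17.7% were called with a positive one.

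**Figure D3:**
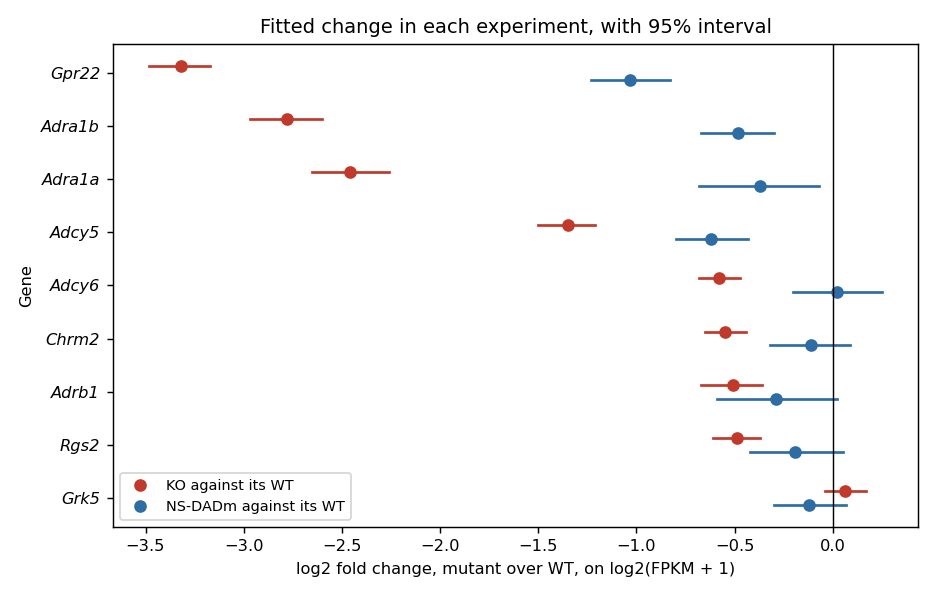
Fitted log2 fold change (mutant over WT, on log2(FPKM + 1)) of the 9 genes in KO (red) and NS-DADm hearts (blue), with 95% intervals as lines, in the order of the change in KO hearts. Gpr22 lies at -3.32 and -1.03, Adra1b at -2.78 and -0.48, and Grk5 at 0.06 and -0.12.

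The rest of the pathway was read from 15 lists of genes by role. Of 149 listed genes tested in KO hearts other than the 9, 58 (38.9%) fell and 56 (37.6%) rose, with a median log2 fold change of 0.01, beside 27.6% and 38.2% of all genes and a median of 0.06. Of 145 tested in NS-DADm hearts, 7 (4.83%) fell and none rose, with a median of -0.05, beside 1.43%, 1.26% and -0.02 over all genes. Some directions were fixed by the filter. In the KO experiment 10 of the genes that rose were over 1 FPKM in KO alone and 8 of those that fell in WT alone, as was 1 of the 7 that fell in NS-DADm hearts, Adra1d. All of these were also past the threshold without the filter.

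The targets of the pathway were mostly lower in KO hearts. Of 14 tested effectors of protein kinase A and G beta gamma, 10 fell and 2 rose (median -0.66), 1 of those that fell being under 1 FPKM in every KO library. Kcnj3, a subunit of the acetylcholine-gated potassium channel, fell from 26.1 ± 0.726 to 5.63 ± 0.122 FPKM and Hcn2, a pacemaker channel bound by cyclic AMP, from 11.4 ± 0.4 to 2.25 ± 0.398 FPKM (limma adjusted p = 1.83e-10 and 1.54e-08). Mybpc3, myosin-binding protein C, rose from 815.6 ± 15.5 to 1742.2 ± 24.3 FPKM and Rrad, a small GTPase that restrains the L-type calcium channel, from 158.8 ± 11.6 to 312.8 ± 9.80 FPKM (adjusted p = 1.83e-10 and 3.13e-08). Creb1 was at 5.36 ± 0.53 and 5.58 ± 0.359 FPKM (adjusted p = 0.587). The cardiomyocyte markers fell in the same hearts, and 3 of the 16 listed effectors (Ryr2, Pln and Tnni3) are among those markers.

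In NS-DADm hearts 2 of 15 tested effectors fell. Hcn2 was at 10.34, 8.77 and 9.11 FPKM in WT and 2.79, 2.28 and 3.20 FPKM in NS-DADm hearts, 3.41-fold lower (-1.47, SE 0.109, limma adjusted p = 0.000313), and it kept its call under every alternative tried. Mybpc3 fell from 925.4 ± 11.9 to 758.9 ± 20.2 FPKM (-0.29, adjusted p = 0.0297), a call lost without NS-DADm replicate 1, 2 or 3 or WT replicate 1 or 2 (adjusted p 0.0652 to 0.128), with the atrial markers as a covariate (0.0566), and without limma's trend and robust options (0.0685). Kcnj3 was at 26.76, 28.25 and 46.05 FPKM in WT and 30.29, 23.27 and 48.88 FPKM in NS-DADm hearts, with the highest value of each group in replicate 3, the library with the highest sum of atrial markers in its group.

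Enzymes and carriers that handle the transmitters were also lower in KO hearts, 6 of 8 tested against 1 higher (median -0.90). Slc22a3, a carrier that clears catecholamines into cells, fell from 5.24 ± 0.24 to 0.493 ± 0.107 FPKM and Ddc, which makes dopamine, from 2.56 ± 0.0586 to 0.30 ± 0.0608 FPKM (limma adjusted p = 5.39e-09 and 7.79e-08). These and Dbh, 3 of the 8, were under 1 FPKM in every KO library and so could only fall. Maoa, which breaks down noradrenaline, rose from 1.45 ± 0.0924 to 6.51 ± 0.204 FPKM (adjusted p = 9.67e-09), while Slc18a2 was at 1.18 ± 0.0666 and 1.26 ± 0.17 FPKM (adjusted p = 0.643). In NS-DADm hearts only Bche, a cholinesterase, passed among 8 tested, falling from 6.15 ± 0.233 to 4.12 ± 0.564 FPKM (adjusted p = 0.0359); the call was lost when any library but NS-DADm replicate 3 was left out (adjusted p 0.0757 to 0.134), without the filter (0.0786) and with the atrial covariate (0.0849).

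Phosphodiesterases, which break down cyclic nucleotides, fell in 8 and rose in 3 of 16 tested genes in KO hearts (median -0.29). Pde3a, a target of cardiac inotropes, fell from 13.2 ± 0.526 to 4.63 ± 0.395 FPKM and Pde1c, which calcium and calmodulin activate, from 7.82 ± 0.556 to 2.52 ± 0.115 FPKM (limma adjusted p = 3.54e-08 and 5.5e-08). Pde3b rose from 2.10 ± 0.182 to 3.03 ± 0.201 FPKM (adjusted p = 0.00181), as did Pde1b from 0.807 ± 0.0987 to 1.71 ± 0.217 FPKM, which was under 1 FPKM in every WT library and so could only rise. Pde8a was at 9.33 ± 0.602 and 8.30 ± 0.344 FPKM (adjusted p = 0.0617). In NS-DADm hearts Pde1c alone of 15 tested passed. It was at 12.15, 13.66 and 13.87 FPKM in WT and 9.10, 7.12 and 7.67 FPKM in NS-DADm hearts, 1.66-fold lower (-0.67, SE 0.0961, adjusted p = 0.00901), and missed the threshold without WT replicate 2 (adjusted p = 0.0516).

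RGS proteins, which speed the turn-off of G proteins, split in KO hearts into 3 lower and 6 higher of 11 tested besides Rgs2 (median 0.36), 2 of the 11 being under 1 FPKM in every WT library and 1, Rgs6, in every KO library. Rgs6, which ends muscarinic signalling in the heart, fell from 5.38 ± 0.372 to 0.353 ± 0.0569 FPKM and Rgs5, a pericyte gene, from 168.4 ± 6.81 to 103.4 ± 1.77 FPKM (limma adjusted p = 2.59e-09 and 4.8e-08). The 4 pericyte markers summed to 97.4 to 100.2 FPKM in WT and 52.0 to 54.5 FPKM in KO hearts, with 2 lower (Abcc9 and Kcnj8) and 2 higher (Pdgfrb and Cspg4). Rgs10 rose 4.45-fold to 44.5 ± 1.24 FPKM and Rgs19 from 4.97 ± 1.17 to 11.1 ± 0.679 FPKM (adjusted p = 2.75e-08 and 2.45e-05), and Rgs4 was at 7.99 ± 1.25 and 7.82 ± 0.52 FPKM (adjusted p = 0.876). None of 8 tested passed in NS-DADm hearts.

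Among the transducers in KO hearts, G alpha subunits fell in 2 and rose in 5 of 10 tested genes, G beta and gamma subunits in 4 and 5 of 10; 1 G alpha gene was under 1 FPKM in every WT library. Gnas, the stimulatory G alpha, fell from 943.0 ± 36.9 to 833.9 ± 13.6 FPKM and Gna12 from 51.3 ± 1.05 to 42.5 ± 0.836 FPKM, while Gna13 rose from 7.24 ± 0.547 to 14.6 ± 0.193 FPKM (limma adjusted p = 0.000898, 0.000128 and 3.18e-07). Gna11, a Gq family member, was at 26.8 ± 0.234 and 25.9 ± 0.693 FPKM (adjusted p = 0.328). Gnb3 fell from 4.14 ± 1.0 to 0.0933 ± 0.0862 FPKM (adjusted p = 1.63e-07); under 1 FPKM in every KO library, it could only fall. Gnb5, the partner of Rgs6, fell by 0.38 on the log2 scale, from 14.6 ± 1.32 FPKM (adjusted p = 0.000847). Gng2 rose from 1.92 ± 0.392 to 5.91 ± 0.13 FPKM (adjusted p = 9.76e-07). In NS-DADm hearts Gnb5 alone passed among the subunits, from 13.1 ± 0.229 to 9.98 ± 0.787 FPKM (adjusted p = 0.0403), and lost the call when any 1 library was left out (adjusted p 0.0573 to 0.145), without the filter (0.0789), without limma's trend and robust options (0.0626) and with the atrial covariate (0.0793).

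Protein kinase A subunits, its inhibitors and the cyclic AMP sensors EPAC fell in 4 and rose in 5 of 10 tested genes in KO hearts, 2 of them under 1 FPKM in every WT library, and A-kinase anchors in 4 and 4 of 10. Rapgef3 (EPAC1) fell from 7.91 ± 0.0577 to 5.66 ± 0.0907 FPKM and the anchor Akap12 from 10.6 ± 0.652 to 6.26 ± 0.0458 FPKM (limma adjusted p = 8.38e-05 and 3.31e-06). Pkig, a kinase inhibitor, rose from 170.3 ± 6.51 to 292.0 ± 2.53 FPKM and Akap2 from 24.9 ± 0.30 to 56.4 ± 1.4 FPKM (adjusted p = 1.24e-08 and 1.67e-09). On the Gq side, phospholipase C beta and protein kinase C genes fell in 3 and rose in 3 of 12, 1 of them under 1 FPKM in every WT library and 1 in every KO library. Prkcq fell from 3.25 ± 0.251 to 1.71 ± 0.12 FPKM and Prkce from 9.35 ± 0.485 to 6.42 ± 0.36 FPKM, and Prkcd rose from 4.97 ± 0.548 to 11.3 ± 0.396 FPKM (adjusted p = 3.96e-05, 7.73e-05 and 4.24e-07). Prkcq also fell in NS-DADm hearts, from 2.73 ± 0.305 to 1.4 ± 0.186 FPKM (adjusted p = 0.0207), and lost the call without NS-DADm replicate 1 or 2 or WT replicate 1 or 2 (adjusted p 0.0593 to 0.0917) and with the atrial covariate (0.0579). No A-kinase anchor or protein kinase A gene passed there.

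Of 20 tested cardiac receptors for other ligands, 10 rose and 8 fell in KO hearts. Of 17 orphan receptors besides Gpr22, 9 rose and 4 fell. In these lists 1 and 2 genes were under 1 FPKM in every WT library, which fixes their direction. Among the 8 that fell, 1, Ptgfr, was under 1 FPKM in every KO library and so could only fall. Ednra, the endothelin A receptor, fell from 15.8 ± 0.771 to 5.70 ± 0.0917 FPKM and P2ry1, an ADP receptor, from 8.77 ± 0.667 to 3.16 ± 0.184 FPKM (limma adjusted p = 9.38e-09 and 1.04e-07). P2ry6, a UDP receptor, rose from 2.98 ± 0.215 to 15.4 ± 0.386 FPKM and the orphan receptor Gpr34, a microglia and macrophage gene, from 2.06 ± 0.31 to 8.93 ± 1.04 FPKM (adjusted p = 7.99e-10 and 8.59e-08). Gpr157 fell from 15.7 ± 0.389 to 7.43 ± 0.501 FPKM (adjusted p = 1.32e-07), and Gpr146 was at 30.8 ± 1.06 and 28.7 ± 1.25 FPKM (adjusted p = 0.0959). In NS-DADm hearts none of 21 receptors for other ligands and none of 15 orphan receptors passed.

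**Figure D4:**
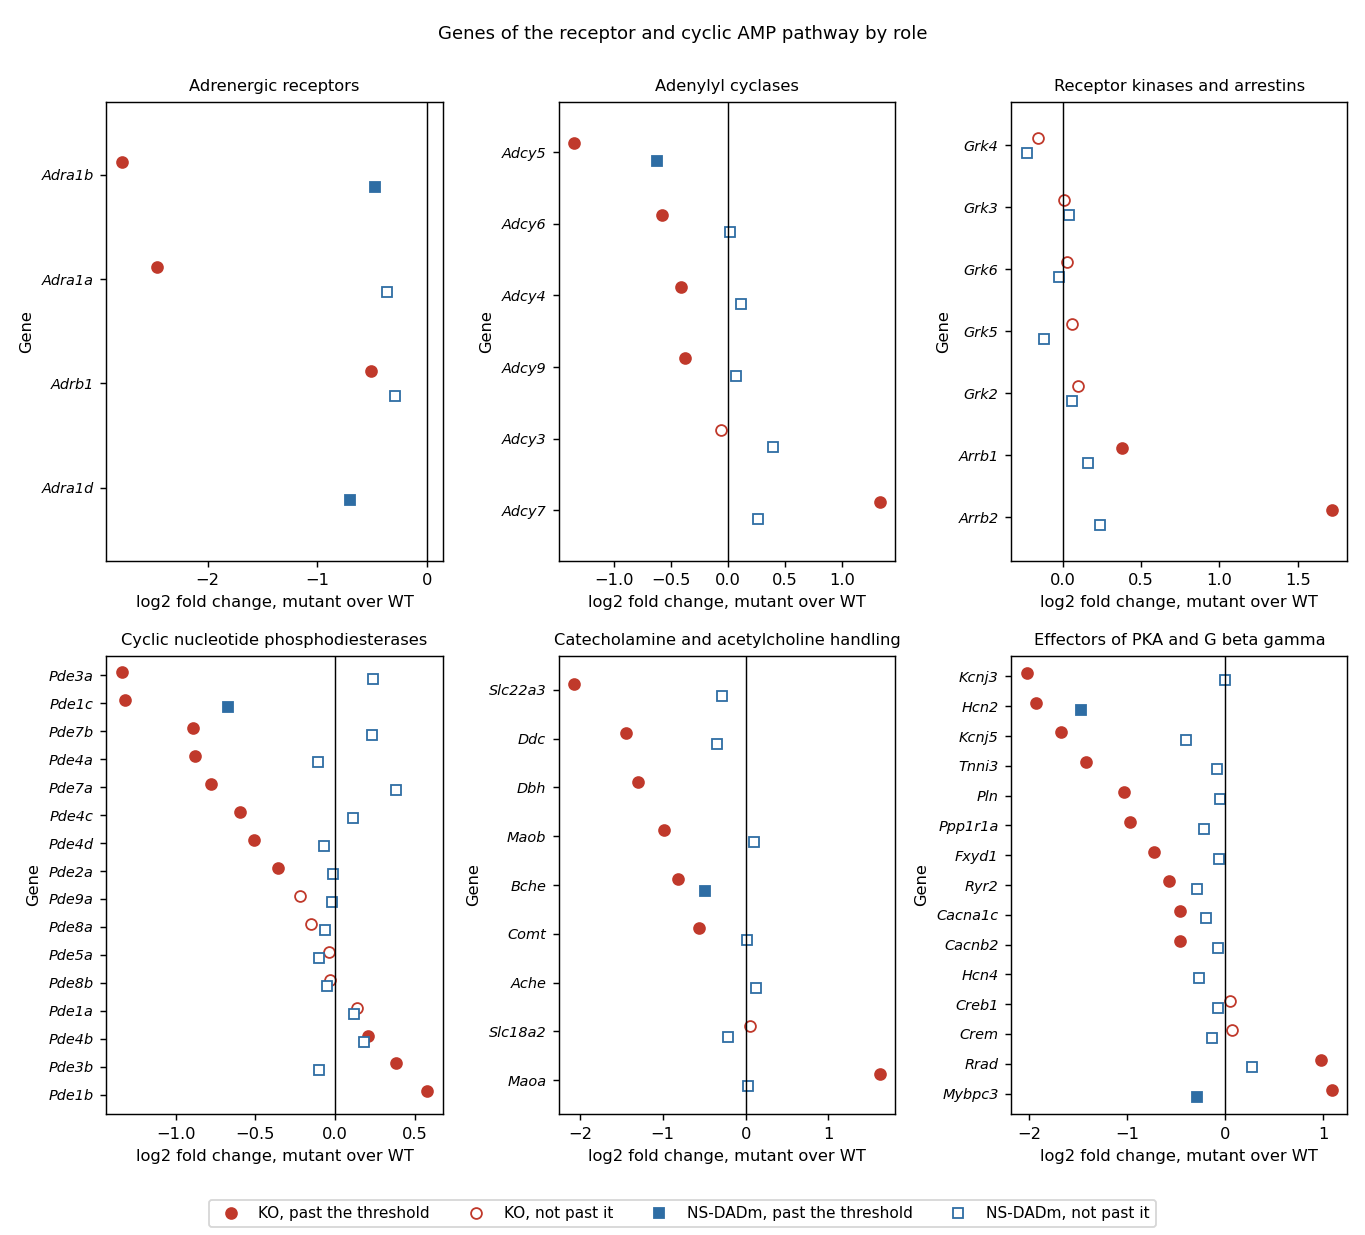
Fitted log2 fold change of tested genes from 6 lists by role, KO as red circles and NS-DADm as blue squares, filled where past an adjusted p of 0.05 and open where not; those of the 9 chosen genes that are on these lists are included. In NS-DADm hearts the filled squares are Adra1b, Adra1d, Adcy5, Pde1c, Bche, Hcn2 and Mybpc3, all to the left of 0.

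Genes with the pattern most like those of the 9 were found by the root mean square difference of log2(FPKM + 1), centred on the WT mean of each table, over 12 libraries and 10888 genes. Kcnv2, a potassium channel subunit, lay nearest to Adra1a (0.0957), falling from 6.04 ± 0.376 to 0.34 ± 0.0954 FPKM in KO hearts, with 4.40 ± 0.412 FPKM in NS-DADm hearts against 5.76 ± 0.52 FPKM. Hrc, the histidine-rich calcium-binding protein of the sarcoplasmic reticulum, lay nearest to Adra1b (0.0976), at 482.2 ± 11.8 and 70.4 ± 2.35 FPKM in WT and KO and, in the other experiment, 525.9 ± 39.1 and 367.1 ± 13.5 FPKM. Pde1c lay nearest to Adcy5 (0.125). Dguok lay nearest to Adrb1 (0.0858), Man2a2 to Chrm2 (0.0562), Ice1 to Adcy6 (0.0714), Rnpep to Grk5 (0.0383) and Pbxip1 to Rgs2 (0.0782).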

How the data were processed

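Per the file headers, the authors deposited 1 table of FPKM for each experiment; empty entries of the NS-DADm table (1654 to 2212 genes per library) were read as 0. They also deposited signed fold changes (a ratio, negative where lower) and q-values of their own comparisons, quoted only as such. Libraries were, per the labels' protocols, made from RNA purified by TRIzol and column, sequenced on an MGISEQ-2000 to an average of 60 M reads, and filtered with SOAPnuke 1.5.2. The build GRCm38.p6 and the tools RSEM 1.2.12, Bowtie2 2.2.5, HISAT2 2.0.4 and DESeq2 1.4.5 are named in the submitters' processing notes; their roles, and whether strand was used, are not given in the sources used here. FPKM is relative to the library's total, so abundant genes that rise lower all others. Symbols turned into dates (24 in each table), into numbers (7) or repeated (2) were left out. Another 3 columns with values of single samples could not be matched to any and were not used. The tables were normalized separately, so tests were made within each.

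From these FPKM values, limma 3.58.1 in R 4.3.3 (trend, robust) was run on log2(FPKM + 1). Genes had to reach 1 FPKM in at least 3 of the compared libraries, with Benjamini-Hochberg adjustment over all genes tested and a threshold of 0.05. KO and NS-DADm were each fitted against their own 3 WT libraries, and their effects were contrasted over all 12. Fold values are ratios of mean FPKM. Depth was estimated from the steps of low FPKM values. Of 221 to 259 values per library, 64.7% to 78.0% came within 0.15 of a whole fragment (38.5% to 47.6% in values with random steps). No counts were therefore rebuilt for the tests. The fragment numbers and the chi-squares between replicates use this approximate depth. In simulated data with 200 genes changed, the fit recovered 97% of log2 changes of 1 among 11313 genes of the KO experiment. It recovered 88% among 11572 genes of the NS-DADm experiment, with 11 and 5 false calls in this order. Noise was drawn for each gene on its own, and 65.8% of genes were called in the real KO comparison. The recovery therefore does not describe changes shared by many genes.

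The 9 genes, the lists by role and the marker lists were chosen with earlier results of these data known. Beside the 9 and their family members, each list was represented by its called genes with the largest falls and rises and its most abundant gene not called; Pttg1 was named after its values were seen, as were Kcnj3 in NS-DADm hearts, Adcy7 and the marker genes. Alternatives were a pseudocount of 0.1, no filter, median centring, no trend, a replicate block, each library left out, and, added after seeing the data, the log2 of the summed atrial markers other than Nppa as a covariate. Promoter windows are from RefSeq and positions from the annotation of GRCm38.p6. Figures were drawn with matplotlib 3.10.9. Some genes that these rules select are not reported here.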

Additional observations from a re-analysis of the deposited data

Results flagged for a closer look

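Among the 7 pathway genes that fell in NS-DADm hearts, 4 differed in their effect between the experiments by the test of the difference itself (limma, all 12 libraries, NS-DADm effect minus KO effect). For Mybpc3 the difference was -1.38 (adjusted p = 3.1e-10), as it rose in 3 of 3 KO libraries over all WT libraries and lay lower in 3 of 3 NS-DADm libraries. Pde1c differed by 0.65 (adjusted p = 0.000584), Hcn2 by 0.46 (adjusted p = 0.0212) and Bche by 0.34 (adjusted p = 0.0302); these 3 fell in both experiments and less so in NS-DADm hearts. Sex differs between KO and WT libraries, which enters each of these differences, and its part was not tested.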

How the results depend on the processing

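Over the alternatives, the number of genes called in NS-DADm hearts (315) depended on the settings. It was 171 with the atrial markers other than Nppa as a covariate (chosen after seeing the data), 164 without the filter, 496 with the replicate number as a block, and 84 to 248 with 1 library left out (84, 99 and 148 without WT replicate 2, WT replicate 1 and NS-DADm replicate 1). The 7 pathway genes lower in NS-DADm hearts became 4 with the covariate, 11 with the replicate block, and 1 to 6 with 1 library left out (1, 2, 3 and 4 without WT replicate 2, WT replicate 1, NS-DADm replicate 1 and NS-DADm replicate 2); none was higher under any of these. With 1 library left out, KO calls numbered 6814 to 7352 (7775 with all), calls of the difference 4639 to 5311 (5348), the 9 genes called 6 to 8 in KO and 2 to 3 in NS-DADm hearts, and pathway genes 48 to 59 lower (58) and 44 to 59 higher (56) in KO hearts. Without any 1 WT library of the KO experiment, Adra1a and Gpr22 dropped out because only 2 libraries were left over 1 FPKM, by construction of the filter. Median centring changed the split of the difference from 2063 higher and 3285 lower to 2773 higher and 2476 lower. Before centring, the mean of the library medians was 0.09 (log2) higher in KO hearts than in their WT. Log2 fold changes of the 9 genes moved beyond 1 SD in 12 of 201 values and none of the called values changed sign; Gpr22 in KO ranged from -4.52 to -3.30. Among 582 values of named pathway genes 29 lost the call, all in NS-DADm hearts, and none changed sign; the cause was not tested. Same-numbered libraries did not deviate together throughout (r = -0.056, -0.025 and 0.002 in the KO, 0.007, 0.376 and 0.435 in the NS-DADm experiment), so the numbers were not taken as pairs; the replicate block gave 7724 calls in KO and 5501 for the difference. At the estimated depth, Adra1a and Gpr22 in KO hearts rest on few fragments, which limits the precision of their folds.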
